A study of Drosophila melanogaster with 66 samples.

Results

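The subject is a set of 105 mRNAs, taken as maternal, of genes whose symbol is a CG number, the identifier given to a predicted Drosophila gene. Maternal origin was not tested, since by the study zygotic transcription begins late in the 0-2 hour period. Several of these genes carry other names as synonyms. Members were chosen from unfractionated embryo RNA on Affymetrix Drosophila Genome 2.0 arrays. A member has a single CG symbol, a mean log2 signal of at least 8 over both arrays of 0-2 hour embryos, and a fall of at least 3 on the log2 scale to the mean of both arrays of 4-6 hour embryos. Each of the 105 probe sets stood for a different gene, out of 5209 CG genes and 11982 genes with 1 symbol on the array. For the gradients, Drosophila melanogaster embryos of 3 ages after egg laying (0-2, 4-6 or 8-10 hours) were incubated with cycloheximide, which holds ribosomes on mRNA. Their extracts were then sedimented through sucrose gradients. Each period had 2 untreated gradients with 8 arrays each (a pool of the light fractions 1-5, then fractions 6 to 12 singly), 1 gradient lysed and run with EDTA and measured as 4 pools (fractions 1-5, 6-7, 8-9 and 10-12), and 2 arrays of unfractionated RNA. All groups came from whole embryos, of the Canton S strain by the study's methods, with no stated mutation. The stated treatments were EDTA and cycloheximide, and cycloheximide is not stated for the unfractionated RNA. Gradients called untreated here lacked EDTA only. Nuclei and debris were spun out before the gradients, whereas unfractionated RNA came from the whole embryo.

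The early Drosophila embryo lives on mRNAs that the mother loads into the egg. Many of them are held without ribosomes in ribonucleoprotein particles, and large numbers are degraded around the maternal-to-zygotic transition, first by maternal factors such as the RNA-binding protein Smaug and later by zygotic ones. In a sucrose gradient, mRNAs free of ribosomes stay in the light fractions and mRNAs with many ribosomes reach the heavy ones. EDTA binds the magnesium that holds ribosomal subunits together, so that polysomal mRNAs move to lighter fractions while other heavy particles need not.

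Array medians ranged from 4.55 to 5.13 on the log2 scale, and r between the paired unfractionated arrays was 0.982 to 0.992 across probe sets. The 13 neuron and glia genes found (of 14 listed) had a summed log2 signal of 8.72 to 8.86 at 0-2 hours and 12.5 to 12.8 at 8-10 hours, and the 9 muscle genes found (of 14) had 7.78 and 7.96 at 0-2 hours, 10.06 and 11.05 at 4-6 hours, and 12.18 and 12.95 at 8-10 hours. Both lists thus followed the age labels, and the muscle list was higher on the second array of each period. The 15 eggshell and follicle cell genes found (of 20) had summed signals between 8.58 and 8.90 on all 6 arrays. The list of localized and germ plasm mRNAs, which includes bicoid and oskar, had 19 genes found (of 23) and a summed log2 signal of 15.3 on both 0-2 hour arrays, 12.8 and 13.1 at 4-6 hours, and 12.89 and 12.98 at 8-10 hours.

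In unfractionated RNA the members started at a median log2 signal of 9.50 and reached 5.68 at 4-6 hours. The falls, which chose the members and are given without a test, ran from 3.03 to 6.12 with a median of 3.86, or from just over the minimum to 69.6-fold. The most abundant members at 0-2 hours were CG6770, listed in RefSeq with the synonym p8, CG14545, CG14036 and CG6180. CG6770 read 12.54 and 12.26 at 0-2 hours, 7.92 and 9.37 at 4-6 hours, and 8.66 and 9.52 at 8-10 hours. CG14545 read 12.02 and 12.73, then 5.77 and 7.71, then 6.56 and 7.52. Both genes were lower on every later array than on either 0-2 hour array. CG4991 fell furthest, from 11.74 and 11.87 to 4.45 and 6.91, so that its 4-6 hour arrays differed by more than those of most members. The second 4-6 hour array was the higher one for 104 of the 105 members, by a median of 0.70, against 54.1% of all tested probe sets, and the second 8-10 hour array for 99 members, by a median of 0.35, against 47.4%. The muscle list was higher on the same arrays, with 11.05 against 10.06 at 4-6 hours and 12.95 against 12.18 at 8-10 hours. The part of these gaps between arrays in the members' levels was not tested.

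At the threshold of the fall, CG7745 (3.03), CG42240 (3.05) and CG7857 (3.07) were just inside, and CG14613 (2.95), CG1532 (2.96) and CG2604 (2.96) just outside. At the threshold of the level, CG12868 (8.01), CG42365 (8.13) and CG5966 (8.31) were just inside, and CG18586 (7.99), CG7386 (7.97) and CG17294 (7.81) just outside. A further 9 probe sets of 8 member genes were on the array outside the rule. A CG10344 probe set fell by 3.60 from a level of 7.29, below the minimum. A CG32425 probe set went from 6.43 to 5.90 and then to 8.92 at 8-10 hours, unlike the member probe set of that gene. Probe sets of 14 members carry the suffix _s_at and of 13 the suffix _a_at, which mark probes shared between transcripts.

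**Figure D1:**
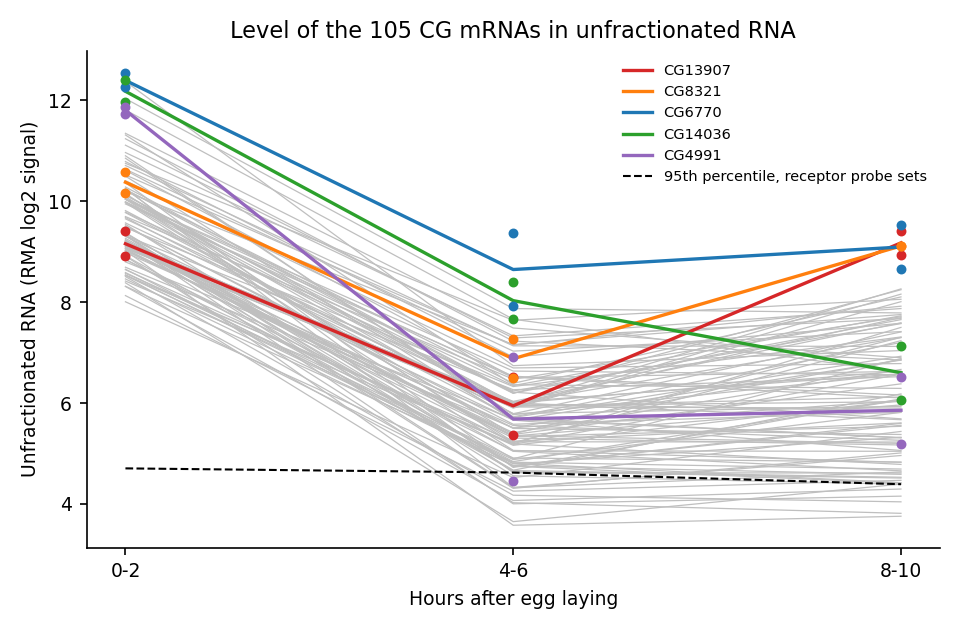
RMA log2 signal in unfractionated RNA against embryo age for the 105 members (grey lines, mean of 2 arrays), with 5 genes in colour and a point for each array. All lines fall to 4-6 hours, as the rule requires, and CG13907 alone returns to its 0-2 hour level at 8-10 hours (9.42 and 8.94 against 9.41 and 8.91).

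The same fall was present in the gradients, on arrays that the rule did not use. Total gradient signal is the log2 of the mean linear signal over a gradient, with the pool of fractions 1-5 counted 5 times. It fell between 0-2 and 4-6 hours for all 105 members by limma with Benjamini-Hochberg adjustment over 10358 probe sets. The threshold was 0.05, which called 29.6% of all tested probe sets lower. The median difference was -3.39, from -6.42 for CG4991 to -1.39 for CG8321, and 69 members fell by at least 3. Median differences over all tested probe sets were 0.03. At 0-2 hours the members read a median of 0.68 lower in the gradients than in unfractionated RNA, against 0.07 higher over all tested probe sets, with a range from -2.39 to 1.16.

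At 0-2 hours most of the members were in the light fractions. Ribosome occupancy here means how much of an mRNA's gradient signal, in percent, lay in fractions 6-12. Since the arrays were scaled to each other, an mRNA with equal signal on all of them has an occupancy of 58.3%. The median member had an occupancy of 34.8% (32.2% in gradient 1 and 38.0% in gradient 2), against 58.6% over all 10358 tested probe sets. The median was 35.1% for the 221 probe sets of other named genes that met the same minimum level and fall. It was 65.3% for the 561 CG probe sets that met the minimum level and whose signal changed by less than 1. The groups were not matched for abundance. Their median 0-2 hour levels were 9.50 for members, 9.81 for the named genes and 8.86 for the retained CG probe sets. Thus the CG members lay beside the named mRNAs that met the same minimum level and fall, and below the retained CG mRNAs. This is given as a description and was not tested. In both gradients 57 members had an occupancy below 40%, against 10.7% of all tested probe sets. At 4-6 hours 6 members did, against 2.23%, and at 8-10 hours 18, against 2.51%. Gradient 2 gave the higher value for 86 of the 105 members, by a median of 4.10 percentage points, and the values of both gradients correlated with r = 0.97 over the 105 members, which share the arrays.

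By the thresholds used in the study's methods, a Logit (the natural log of the ratio of signal in fractions 6-12 to signal in fractions 1-5) below -0.15 with an SD of the profile below 1 marks a preferentially untranslated mRNA, and a Logit above 1.5 with an SD above 0.5 a preferentially translated one. The study's EDTA filter was not applied here, so these classes were set on other probe sets than the study's. At 0-2 hours 59 members were preferentially untranslated, where 16.9% of tested probe sets were, and 8 were preferentially translated, where 10.6% were. A further 11 members had a Logit under the threshold but a profile too steep for the class, among them the lowest of all. Counting the pool of fractions 1-5 once, and not 5 times, left 0 members untranslated and 22 translated.

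**Figure D2:**
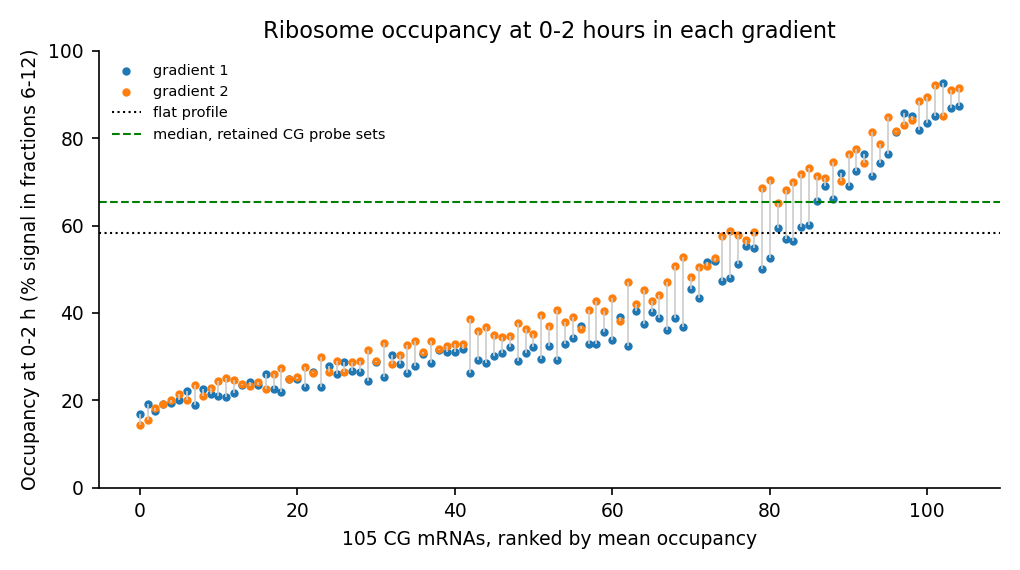
Occupancy at 0-2 hours (% of signal in fractions 6-12) of the 105 members ranked by their mean, with a point for each gradient, the flat-profile value of 58.3% (dotted) and the median of the retained CG probe sets of 65.3% (dashed). Most members lie under both lines in both gradients, and a tail of members reaches 80% and above.

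The lowest occupancies belonged to CG8026, with 16.9% and 14.5% in the 2 gradients, to CG14545, with 19.1% and 15.6%, and to CG9917, with 17.6% and 18.3%. CG1640 (synonym ALT), CG6927, CG14882, CG8272 and CG8321 followed, all between 18.9% and 23.5% in either gradient. In CG8026 the pool of fractions 1-5 held 83.1% and 85.5% of the signal, fraction 6 held 5.13% and 3.87%, and each later fraction less than fraction 6. Within fractions 6-12 the highest signal lay in fraction 6 for 48 of the 105 members, more than in any other single fraction. These members had a median occupancy of 26.9%. The highest signal lay there for 21.5% of tested probe sets, and for 59.3% of those of other named genes with the same minimum level and fall.

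Not every light mRNA had its highest signal of fractions 6-12 in fraction 6. In 34 members the highest of fractions 6-12 was among fractions 10 to 12, where 49.7% of tested probe sets had it, and 12 of these had a mean occupancy below 40%. CG10237 was not one of these 12, with an occupancy of 38.9% and 44.2% and a mean above 40%. It held 61.1% and 55.8% of its signal in fractions 1-5, 3.39% and 3.30% in fraction 8, and 10.5% and 13.9% in fraction 11. Its profile therefore had a large light pool and a second rise at fraction 11, in both gradients. The fractions between were lower but held signal, with 5.32% and 4.08% in fraction 6 and 5.97% and 7.03% in fraction 10.

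The members at the other end were loaded with ribosomes by this measure. CG9926 had the highest mean occupancy, 87.4% and 91.5%, followed by CG44005 (87.0% and 91.1%) and CG4911 (92.6% and 85.1%). CG4911 carries the synonym FBXO4, a name of the F-box family, whose members choose substrates for SCF ubiquitin ligases. The other members with F-box names lay elsewhere, CG8272 (FBXL9) at 22.2% and 20.1% and CG32221 (FBXL18) at 36.8% and 52.8%. CG12868, CG14352, CG32109, CG2938 and CG42240 completed the 8 highest, with 82.0% to 92.1% in either gradient.

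Members with more than 50% of their signal in fractions 6-12 differed in where in these fractions it lay. CG8180, at 81.3% and 81.7%, carried most in the heaviest fractions, with 19.3% and 21.2% in fraction 11. CG6180, at 71.4% and 81.4%, had a distinct peak, with 18.8% and 21.3% in fraction 9 and 6.51% and 7.46% in fraction 11. CG14036, at 56.4% and 70.1%, had 18.0% and 22.1% in fraction 7, 3.72% and 4.99% in fraction 9 and no more than 2.74% in any later fraction. CG2938 had no sharp peak, with 10.7% to 16.9% in each of fractions 6 to 9 of either gradient. The highest of fractions 6-12 was 7 for CG14036, 9 for CG6180 and 11 for CG8180 in both gradients, with fraction 10 close to 9 for CG6180 and fraction 12 close to 11 for CG8180.

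**Figure D3:**
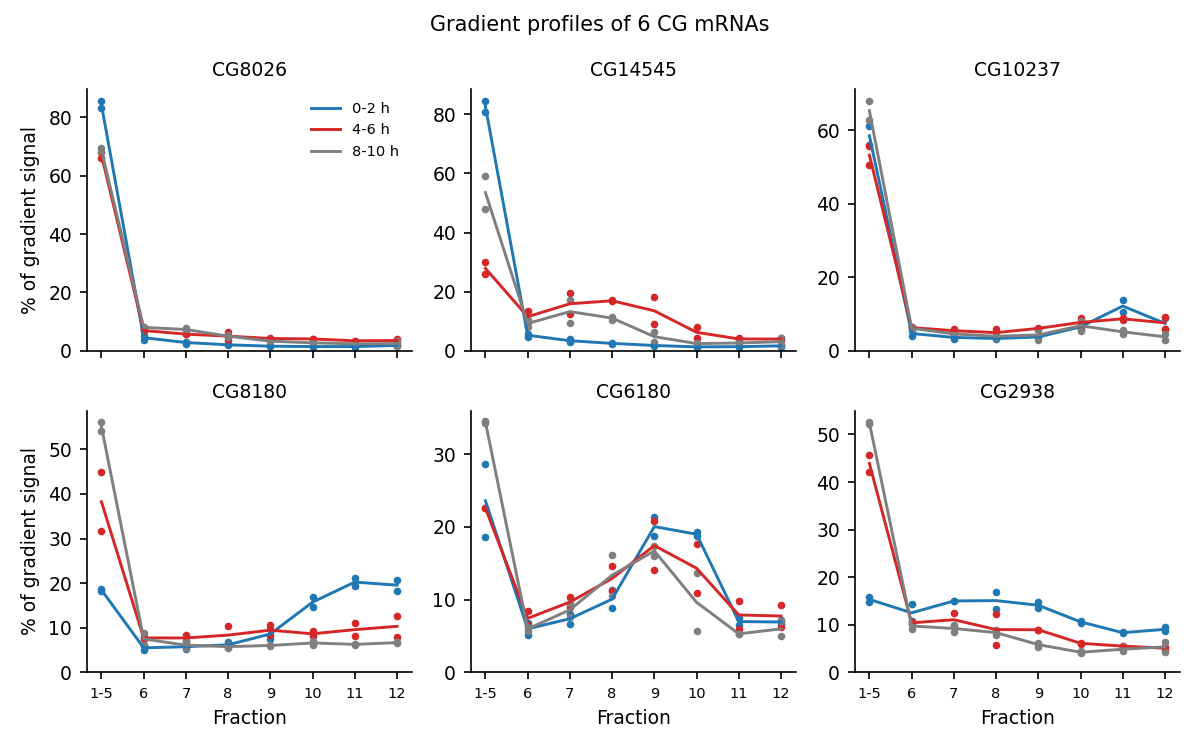
Percentage of gradient signal in the pool of fractions 1-5 and in each of fractions 6 to 12 for 6 members, with the mean of both gradients (lines) and each gradient (points), in each of the 3 periods. The pool was counted 5 times. CG8026 and CG14545 slope down from fraction 6 at 0-2 hours, CG10237 has a second rise at fraction 11, and CG8180, CG6180 and CG2938 carry most of their signal in fractions 6-12 at that age.

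CG12945 and CG8507 are neighbours in the order of protein-coding genes in RefSeq, the only adjacent pair among the members. CG12945 had an occupancy of 23.6% in both gradients, and CG8507 one of 76.5% and 84.7%. Occupancy at 0-2 hours followed neither abundance nor the size of the fall closely over the 105 members (Pearson r = -0.05 and Spearman rho = -0.12 with the 0-2 hour level, and r = -0.14 and rho = -0.14 with the fall).

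What was left at 4-6 hours had a different distribution. A member was called measurable in a period if its gradient signal was above the 95th percentile of odorant and gustatory receptor probe sets, which embryos are not expected to express, in both gradients. This held for all 105 members at 0-2 hours, 74 at 4-6 hours and 92 at 8-10 hours, and for 90.0%, 89.7% and 97.3% of tested probe sets. Among the 74 members measurable at 0-2 and 4-6 hours the Logit rose for 42 and fell for 13 by limma with Benjamini-Hochberg adjustment, where 28.7% and 21.3% of the tested probe sets measurable in both periods rose and fell. The other named genes that met the same minimum level and fall had 174 probe sets measurable in both periods, of which 106 rose and 27 fell. The median occupancy of the 74 went from 36.8% to 59.1%. Of the 54 that began below the flat value of 58.3%, 42 rose and 1 (CG2694) fell, where 48.02% and 3.37% of tested probe sets that began there did. Of the 20 that began above it, none rose and 12 fell, where 10.3% and 38.4% did. This split and the test share the 0-2 hour gradients, which favours rises below the flat value and falls above it. The tested probe sets beside them were not chosen for a fall in signal.

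Signal near background also reads as a flat profile. The 31 members that were not measurable at 4-6 hours had a median occupancy of 58.3% there, with a range from 38.6% to 71.9%. With the median receptor signal taken off each array, 38 of the 74 rose and 11 fell. The values of members that passed well beyond the flat value are therefore given separately. CG32243 went from 28.6% and 36.7% to 88.0% and 84.2%, a Logit difference of 2.56 (adjusted p = 3.12e-07), and was the only member preferentially translated at 4-6 hours. CG7857 went from 26.4% and 32.7% to 75.3% and 81.8%, CG8321 from 18.9% and 23.5% to 75.7% and 72.5%, and CG14545 from 19.1% and 15.6% to 74.1% and 70.1%. In each of these genes the gradients of both periods were far apart.

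The falls were smaller. CG2938 went from 85.1% and 84.2% to 57.8% and 54.4% (Logit difference -1.46, adjusted p = 6.41e-06), CG4911 from 92.6% and 85.1% to 65.2% and 69.8%, and CG44005 from 87.0% and 91.1% to 69.5% and 77.2%. CG2694 is the exception that began near the flat value, at 51.1% and 57.9%, and went to 37.5% and 36.7%. Of the 37 measurable members that were preferentially untranslated at 0-2 hours, 34 were in neither class at 4-6 hours, 2 were still untranslated and CG32243 was translated. At 4-6 hours 9 of the 105 members were preferentially untranslated (6.34% of tested probe sets) and 1 translated (5.89%), and at 8-10 hours 26 (5.91%) and 0 (5.46%). Of the 221 probe sets of other named genes with the same minimum level and fall, 31 were untranslated at 4-6 hours and 71 at 8-10 hours. CG17163 was low in each period, with 21.8% and 27.3% at 0-2 hours, 21.0% and 18.9% at 4-6 hours, and 29.7% and 20.8% at 8-10 hours. With CG8026, CG8272, CG11674 and CG6276 it made up the 5 members that were measurable throughout with a mean occupancy below 40% in each period.

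**Figure D4:**
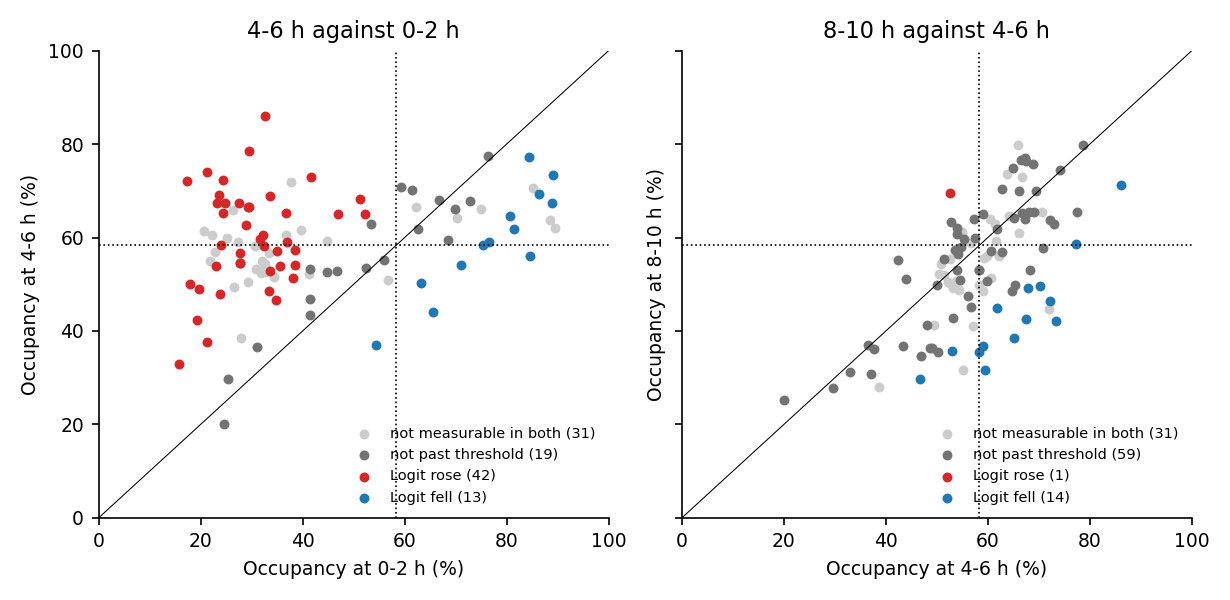
Occupancy (% of signal in fractions 6-12, mean of 2 gradients) of each member at 4-6 hours against 0-2 hours, and at 8-10 hours against 4-6 hours, coloured by the limma call on the Logit for members measurable in both periods. Dotted lines mark the flat profile of 58.3%. Of the measurable members 42 rose and 13 fell in the first interval, and 1 rose and 14 fell in the second.

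Signal at 8-10 hours was low for most members and about as often above background as for other probe sets. In unfractionated RNA 100 of the 105 lay above the 95th percentile of the receptor probe sets (a log2 signal of 4.39), as 97.3% of all tested probe sets did, while 92 did at 4-6 hours (93.3%) and all 105 at 0-2 hours (87.2%). The median member had 5.68 at 4-6 hours and 6.12 at 8-10 hours. Since the 4-6 hour arrays chose the members, this difference has no test. It was at least 1 for 29 members and at most -1 for CG14036 and CG11674, and 74 members lay between. Both 8-10 hour arrays read higher than both 4-6 hour arrays for 46 members, as for 35.3% of all tested probe sets. At 8-10 hours 104 members were still below their 0-2 hour mean, 68 of them by at least 3.

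The gradients, whose arrays the rule did not use, gave the same direction. Total gradient signal rose from 4-6 to 8-10 hours for 52 members and fell for 3 by limma, where 23.0% and 21.2% of tested probe sets rose and fell, and the median difference was 0.54 against -0.03. Of the 74 members measurable in both periods 39 rose and 3 fell, and of 9203 such tested probe sets 1835 rose and 2096 fell. The tested probe sets were not chosen for a low 4-6 hour signal. Of the 221 probe sets of other named genes with the same minimum level and fall, 132 rose and 6 fell, so the rise was not particular to the CG genes. Among the members CG13907 rose the most. It read 8.90 and 8.53 in the gradients at 0-2 hours, 6.12 and 6.06 at 4-6 hours, and 8.72 and 8.90 at 8-10 hours, a difference of 2.72 between the later periods (adjusted p = 0.000112). Its 8-10 hour signal was thus at the 0-2 hour level, in the gradients as in unfractionated RNA. In place of the 24.8% and 24.9% occupancy of 0-2 hours it had 74.7% and 78.2%.

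Of the other members with the highest 8-10 hour levels, most rose in the gradients as well. CG17896 went from 5.28 and 6.68 at 4-6 hours to 8.01 and 8.52 in unfractionated RNA, and rose by 2.07 in the gradients, with an occupancy of 73.4% and 76.3%. CG8321 went from 6.49 and 7.27 to 9.12 and 9.11, and rose by 1.87, with 78.3% and 70.8%. CG33090 went from 5.47 and 6.36 to 8.15 and 8.17, and rose by 1.91, but had 30.7% and 42.7%, close to its 40.2% and 42.8% of 0-2 hours. A second probe set of CG33090, outside the rule, read 5.66 at 4-6 and 6.67 at 8-10 hours. CG12024 and CG14971 also rose in the gradients (by 1.91 and 1.19), as did CG6770 (by 1.39), while CG31548, listed with the synonym DHRS4, had a difference of 0.21 that did not pass (adjusted p = 0.390).

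The members that fell again in the gradients were CG14036, CG11674 and CG32243. CG14036 read 7.32 and 7.68 at 4-6 hours and 6.94 and 6.36 at 8-10 hours (difference -0.85, adjusted p = 0.0187), and its unfractionated signal went from 7.66 and 8.40 to 6.07 and 7.14. CG32243 had a difference of -1.12 (adjusted p = 0.00777). The call on CG11674 rested on a difference of -0.65 (adjusted p = 0.0219), and its occupancy stayed low, at 27.1% and 28.6%. Without the second gradient of 4-6 or of 8-10 hours CG32243 was the 1 member that fell, and without the first of 8-10 hours 5 did. By the mean of log2 values 12 members fell, the 3 named here among them.

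The 29 members at least 1 higher at 8-10 than at 4-6 hours in unfractionated RNA had a median occupancy of 63.0% at 8-10 hours, having had 32.3% at 0-2 hours. The median of all 105 members at 8-10 hours was 54.4%. Within the group of 29 occupancy at 8-10 hours ran from 31.2% (CG8026) to 79.8%. Over the 74 members measurable in both later periods the Logit fell for 14 and rose for 1, where 2.64% and 2.66% of tested probe sets measurable in both periods did. Of 172 such probe sets of other named genes with the same minimum level and fall, 31 fell and 4 rose. Among the members CG44005 fell the most, from 69.5% and 77.2% to 43.9% and 40.3% (limma on the Logit, difference -1.34, adjusted p = 0.00106). CG3566 was the member that rose, from 55.1% and 50.2% to 72.3% and 66.9% (0.73, adjusted p = 0.0397). The count that fell was 4 and 5 without the first and second gradient of 4-6 hours and 5 without the first of 8-10 hours, and no member rose without any one gradient of either period. It was 6 with fractions 6 and 7 counted as non-polysomal and 9 with receptor background subtracted, where no member rose with background subtracted.

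At 0-2 hours the members' profiles were much more alike with EDTA than without, while at the later ages the treated shares still spread widely. After treatment an mRNA with equal signal in the 4 pools has 25% in each. At 0-2 hours the share of members in fractions 10-12 ran from 5.97% to 52.6% in the untreated gradients, taken as the same 4 pools, and from 21.6% to 31.3% with EDTA. CG8180 had 52.6% untreated and 24.1% with EDTA, and CG14545 had 5.97% and 26.7%. The median share in fractions 10-12 with EDTA was 27.2% for the members and 26.0% over all tested probe sets. It was 26.7% for the named genes of the same minimum level and fall. The range over other probe sets was not computed, so the narrow range is not shown to be particular to the members. The untreated pool of fractions 1-5 held a median of 46.8% of the members' signal, and 25.1% with EDTA, against 24.91% and 24.98% over all tested probe sets. At 4-6 hours the share in fractions 10-12 ran from 5.58% to 49.4% untreated and from 18.2% to 57.3% with EDTA, and at 8-10 hours from 5.66% to 58.9% and from 20.4% to 55.0%. These ranges include the 31 members not measurable at 4-6 hours and the 13 not measurable at 8-10 hours. At these ages the members' median share in fractions 10-12 with EDTA was 33.7% and 32.2%, where all tested probe sets had 25.8% and 27.1%. The 221 probe sets of other named genes with the same minimum level and fall had 35.8% and 35.0%. Untreated medians of the members were 23.9% and 21.9%. The share with EDTA was above the untreated share for 89 and 81 members, against 49.7% and 47.4% of all tested probe sets. Since every array was scaled to the others, a share of 25% says that a member was spread like the average mRNA of the EDTA gradient, not that it was absent from or present in a fraction.

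**Figure D5:**
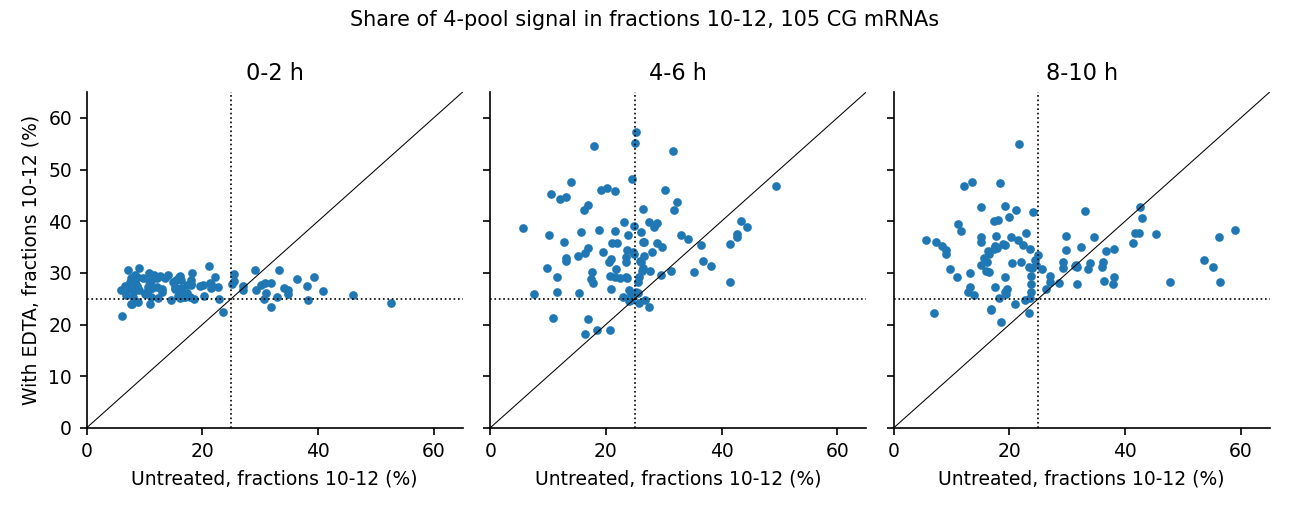
Share of the 4-pool signal in fractions 10-12 with EDTA (1 gradient) against the untreated share (mean of 2 gradients) for the 105 members in each period, with dotted lines at an even 25% and a line of equality. At 0-2 hours the treated shares lie between 21.6% and 31.3% over untreated shares from 5.97% to 52.6%, and they spread from 18.2% to 57.3% at 4-6 hours and from 20.4% to 55.0% at 8-10 hours.

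The study's test of release compares fractions 1-5 with and without EDTA. At 0-2 hours signal in this pool rose for 2 members and fell for 1 by limma with Benjamini-Hochberg adjustment, where 6.33% and 2.36% of tested probe sets rose and fell. CG2938 rose from 7.46 and 7.17 untreated to 9.21 (difference 1.90, SE 0.27, adjusted p = 0.00406), and CG4911 from 7.60 and 8.16 to 9.77 (1.89, SE 0.33, adjusted p = 0.011). Both are among the 8 members of highest occupancy. CG8272 fell from 9.02 and 8.92 to 7.67 (-1.30, SE 0.25, adjusted p = 0.0166) and is among the 8 lowest. Occupancy and the EDTA difference share the untreated arrays of fractions 1-5, so a low value there raises both. Each EDTA pool was hybridised once, so the fit assumes for it the variation seen between untreated arrays. The counts that rose and fell were 4 and 0 without the first 0-2 hour gradient, 0 and 0 without the second, and 5 and 7 without either 8-10 hour gradient.

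The next largest rises, CG12945 (1.39), CG17698 (1.37, synonym CAMKIIb), CG8180 (1.28) and CG42240 (1.18), did not pass, nor did the next largest differences downward, CG7627 (-1.09), CG8026 (-0.98), CG11883 (-0.96), CG5568 (-0.96) and CG6126 (-0.95). CG12945 stood out among them, since its occupancy was only 23.6% in both gradients and its untreated arrays differed, at 8.13 and 7.27, from 9.09 with EDTA. Set against the other 3 pools of the same gradient, fractions 1-5 fell with EDTA for 66 members at 0-2 hours and rose for 17, where 17.8% and 20.5% of tested probe sets did. At 4-6 hours 13 fell and 15 rose (9.87% and 27.8%), and at 8-10 hours 41 fell and 10 rose (10.3% and 29.5%). This measure shares its untreated arrays with occupancy, so a member of low occupancy tends to fall on it. At 0-2 hours the members' median share of fractions 1-5 was 46.8% untreated and 25.1% with EDTA. The 0-2 hour counts therefore largely restate occupancy and are no separate evidence on release. On that measure CG12945 had a difference of -1.86 at 0-2 hours, the opposite sign.

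At 4-6 hours 3 members rose and 4 fell in fractions 1-5 with EDTA, where 12.9% and 3.49% of tested probe sets did. The counts ran from 0 to 6 for both when single gradients were left out, with 0 and 0 without the first of 4-6 hours. CG8026, CG17163 and CG8272, of occupancy below 40% throughout, fell at both 4-6 and 8-10 hours. At 8-10 hours 4 members rose (CG13907, CG17896, CG7857 and CG6126) and 19 fell, where 12.6% and 3.52% of tested probe sets did. CG4586 had the largest fall, from 7.07 and 6.93 to 5.24 (-1.76, adjusted p = 0.00759), and CG6126 the largest rise, from 5.76 and 5.89 to 7.14 (1.31, adjusted p = 0.0127). The 19 had a median occupancy of 35.7% at 8-10 hours, measured on arrays that share the untreated pool. Of the 221 probe sets of other named genes with the same minimum level and fall, 6 rose and 52 fell at 8-10 hours. With the replicate number as a block 1 member rose and 10 fell. Leaving out single gradients, 1 or 2 rose, and 11 fell without either 0-2 hour gradient and 10 without the first of 8-10 hours.

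The difference of the EDTA effect between periods was tested as an interaction in the same fit. None of the 105 members passed between 0-2 and 4-6 hours or between 4-6 and 8-10 hours by limma, where 0.0193% of tested probe sets passed as lower in the second, and 10 and 6 members had an unadjusted p under 0.05 as higher and lower in the first interval and 1 and 16 in the second. On the measure against the other 3 pools, 43 members passed in the first interval and 7 in the second, where 25.2% and 1.52% of tested probe sets passed. That measure shares its untreated arrays with occupancy, so a change of occupancy between periods moves it too. The effects at single periods are therefore not shown to differ by the study's measure.

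Of 40 listed genes of maternal mRNA decay, chosen with earlier results of these data known, 30 were found on the array and 29 were tested. Of these 29, 7 rose and 10 fell between 0-2 and 4-6 hours in unfractionated RNA by limma, where 25.9% and 24.6% of tested probe sets did. gnu, an activator of the PAN GU kinase that opens Smaug translation, fell by 4.97 and zld, which encodes the early zygotic activator Zelda, rose by 2.15. plu, another PAN GU subunit, had the highest occupancy of the list at 0-2 hours, 88.8%, and orb, a cytoplasmic polyadenylation factor, the lowest, 22.1%. Of 25 listed genes of egg activation and the first divisions, 21 were found and 20 were tested, of which 15 fell and 4 rose. Equally numbered unfractionated arrays deviated together, and with the replicate number as a block 7 rose and 11 fell in the decay list and 4 and 15 in the other. Among the latter fs(1)Ya, needed at the first mitosis, had an occupancy of 19.2% and fell by 4.96, values within the range of the 105 members, and fzy, an activator of the anaphase-promoting complex, had 94.96% and rose by 2.03.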

How the data were processed

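Soluble extracts of Drosophila embryos were measured on 66 arrays, 48 of untreated gradients, 12 of EDTA gradients and 6 of unfractionated RNA. The authors made the deposited log2 values by RMA, and no scanner files were used here. RMA scales the arrays to each other, so that an occupancy compares an mRNA with the others in the same fractions and total mRNA per fraction is not kept. The number of arrays limits the precision. The array table has 18952 probe sets, 183 of them controls. Symbols came from the platform annotation updated through RefSeq genes, and the platform's own symbols also gave 105 members.

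Occupancy and the Logit were computed from linear signal with the pool of fractions 1-5 counted 5 times, since the methods state that it held their average. limma 3.58.1 in R 4.3.3 was fitted to 10358 probe sets with a mean log2 gradient signal in the top 50% in at least 1 period, and p-values were adjusted by Benjamini-Hochberg at 0.05. With 2 gradients per period an exact permutation test cannot go below p = 0.333. The labels call replicates biological and do not say which came from separate collections, so p-values measure the spread between these samples. The fits were tested on simulated data. Named genes are the 10 members of highest 0-2 hour level, the 8 highest and 8 lowest occupancies, the 8 highest 8-10 hour levels, the 6 largest differences each way with EDTA at 0-2 hours, and those beside each threshold; further members whose call is described were chosen after their values were seen. The members and lists were chosen with earlier results of these data known. Alternatives were the pool counted once, fractions 6 and 7 as non-polysomal, receptor background subtracted, no filter, the mean of log2 values, matched pools, a replicate block, each gradient left out, and other thresholds of the rule. Sequences, promoters and protein features were not analysed here.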

Additional observations from a re-analysis of the deposited data

How the results depend on the processing

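The counts of members whose Logit or gradient signal changed between 0-2 and 4-6 hours stayed within 1.5 times under each alternative run. The rule gave 169 members with a fall of 2.5 in place of 105, and 91 to 131 with 1 unfractionated array left out. At 0-2 hours, with the pool counted once, 0 members were untranslated, 22 translated and the median occupancy was 72.5%, by construction since the pool then weighs less. With fractions 6 and 7 as non-polysomal 0 were translated and the median was 23.7%. Between 4-6 and 8-10 hours the members whose Logit fell numbered 6 with fractions 6 and 7 as non-polysomal and 9 with background subtracted, and 0 rose with background subtracted or no filter. Leaving out gradients gave 4 to 14 that fell and 0 to 1 that rose. Gradient signal fell for 12 members by the mean of log2 values, and for 1 to 5 with gradients left out. The causes were not tested.

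For EDTA the counts that rose and fell with matched pools were 17 and 66 at 0-2 hours, 15 and 13 at 4-6 hours, and 10 and 41 at 8-10 hours, with 43 and 7 past the threshold for the differences between periods. Without a filter 2 fell at 0-2 hours. With a replicate block 0 fell at 0-2 hours, 0 rose and 2 fell at 4-6 hours, and 1 rose and 10 fell at 8-10 hours. With gradients left out, 0 to 5 rose and 0 to 7 fell at 0-2 hours, 0 to 6 and 0 to 6 at 4-6 hours, and 1 to 2 and 10 to 28 at 8-10 hours. With matched pools at 0-2 hours the sign turned for CG10237 (-1.003), CG12024 (-1.86), CG12945 (-1.86) and CG8321 (-1.91). Of the values of single named genes under all alternatives, 851 kept direction and side of the threshold, 52 newly passed, 38 no longer passed and 4 turned. Deviations of equally numbered gradients from their period means correlated with r of -0.04, -0.09 and -0.29 for the Logit, so the numbers did not pair the gradients, and the block moved no other count of members by over 1.5 times. Those of unfractionated arrays correlated with r of 0.15, 0.58 and 0.25. The text gives no test of unfractionated levels for the members, since the rule used those arrays.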
